A study of Mus musculus with 2 samples.

Results

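Kallikrein-rich spots are the 33 spots of the section labelled Vehicle in which the transcript of Klk1, the gene for tissue kallikrein, took the greatest share of the captured RNA. They were drawn from 321 kept spots of that section, which were the spots with at least 1000 UMIs (distinct captured RNA molecules) and under 10% of UMIs from mitochondrially encoded genes. The members were chosen by their measured Klk1 share, at or above the 90th percentile of the kept spots, and they were set against the remaining 288 kept spots. The section's matrix held 676 spots, and both matrices of the study together held 1466.

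The samples were 10 µm kidney sections, cut from fresh frozen tissue in OCT, from 2 C57BL/6 mice, taken on day 7 after unilateral ureteral obstruction, surgery that ties off the ureter of 1 kidney. One mouse received SH045, an inhibitor of the cation channel TRPC6, and the other received vehicle. Obstruction is described as common to both, but the injury markers of the section labelled Vehicle, given below, go against this. The RNA was captured on 10x Genomics Visium slides, whose barcoded spots each take up RNA from a patch of tissue, so that 1 spot can mix the RNA of several cell types. With 1 section and 1 mouse per treatment, and with spots that are not replicates, no test was possible and no p-value is given.

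Tissue kallikrein is a secreted serine protease that cuts kininogen to release kinins, short peptides that widen vessels and promote sodium excretion. In the kidney it is made mainly in the connecting tubule, the segment between the distal convoluted tubule and the collecting duct, and is released toward the urine. The connecting tubule also reabsorbs calcium under the control of vitamin D and parathyroid hormone, takes up sodium through the epithelial sodium channel, and contains intercalated cells, which move acid and base, among its own cells.

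Klk1 (ENSMUSG00000063903) lies on chromosome 7, from 44225360 to 44229622 in GRCm38.p6, the mm10 assembly, on the plus strand. Beside it lie the Klk1b genes, close copies in the mouse. The 4 upstream windows shown here have 250 bases, end at the base before the gene start and were taken from RefSeq on that build: those of Klk1, of its neighbour Klk1b5, of S100g, whose level followed the Klk1 share most closely, and of Slc8a1, a calcium exporter that was also high in these spots. Each sequence reads 5′ to 3′ on the gene's own strand, and capitals mark AGGTCA and its reverse complement TGACCT, a hexamer bound by several nuclear receptors, and, in S100g, GTAAACA, the reverse complement of the forkhead motif TGTTTAC.
Klk1, plus strand, chr7:44225110-44225359: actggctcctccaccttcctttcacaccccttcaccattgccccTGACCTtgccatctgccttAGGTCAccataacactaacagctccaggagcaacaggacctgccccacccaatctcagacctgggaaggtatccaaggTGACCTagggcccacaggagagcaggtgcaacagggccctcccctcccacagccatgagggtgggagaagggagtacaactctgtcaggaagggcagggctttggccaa
Klk1b5, plus strand, chr7:44216224-44216473: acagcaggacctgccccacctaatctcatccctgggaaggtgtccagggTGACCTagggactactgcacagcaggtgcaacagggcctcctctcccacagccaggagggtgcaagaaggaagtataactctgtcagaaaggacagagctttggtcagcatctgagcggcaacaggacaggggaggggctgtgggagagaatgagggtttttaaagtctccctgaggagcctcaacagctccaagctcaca
S100g, minus strand, chrX:162964600-162964849: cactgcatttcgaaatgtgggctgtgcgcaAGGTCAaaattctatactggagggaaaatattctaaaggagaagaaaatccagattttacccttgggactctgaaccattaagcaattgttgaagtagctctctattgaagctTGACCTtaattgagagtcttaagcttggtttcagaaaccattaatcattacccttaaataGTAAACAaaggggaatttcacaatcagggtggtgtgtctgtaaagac
Slc8a1, minus strand, chr17:81738388-81738637: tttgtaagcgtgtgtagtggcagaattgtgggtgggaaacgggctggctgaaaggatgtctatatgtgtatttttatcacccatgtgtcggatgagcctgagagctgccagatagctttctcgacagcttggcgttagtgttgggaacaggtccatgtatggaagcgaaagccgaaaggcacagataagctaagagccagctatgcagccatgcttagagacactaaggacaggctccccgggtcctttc

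The AGGTCA hexamer occurred 3 times in the Klk1 window, 2 times in that of S100g, 1 time in that of Klk1b5 and not at all in that of Slc8a1. Searched on both strands, it was present in 14.0% of the 32851 windows in the table, and the forkhead motif in 3.17%. The other motifs searched, TATAAA (12.4% of windows) and GCCNNNGGC, bound by AP-2 factors (13.7%), were in none of the 4 windows. Of the 20 genes with the highest ratio in kallikrein-rich spots under the naming rule, 12 had a window, and 2 of these, S100g and Scnn1b, held the hexamer. These are matches of letters in one window per gene, and binding was not measured. By local alignment of the 300-base windows, which add the first 50 bases after the start, the Klk1 window was 76.8% to 85.7% identical to those of 13 Klk1b genes, over 203 to 260 aligned columns.

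In the kallikrein-rich spots Klk1 supplied 23149 of 246256 UMIs, or 9.40% (exact binomial 95% interval 9.29% to 9.52%), against 17892 of 2088380 UMIs, or 0.857% (0.844% to 0.869%), in the remaining spots. By spot the Klk1 share was 6.03% at the lowest, 9.39% at the median and 16.1% at the highest in kallikrein-rich spots, and 0%, 0.401% and 5.95% in the remaining spots. These values chose the members and are a description only. All intervals here and below cover counting error and not the variation between spots, sections or mice. At the threshold of 6.03%, the first 3 spots inside had 6.03%, 6.26% and 6.29%, and the first 3 outside had 5.95%, 5.95% and 5.84%, so the set is the upper end of a continuous range. Of the 11 kept spots within 10% of the threshold, 4 were inside. The 33 spots held 56.4% of the kept spots' Klk1 UMIs with 10.5% of all their UMIs, and Klk1 was found in every one of them and in 281 of the 288 others.

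The kallikrein-rich spots were of ordinary depth. They held a lowest, median and highest of 2725, 6940 and 18283 UMIs, against 1017, 5523 and 33673 in the remaining spots, and a median of 2622 genes against 2356. Mitochondrially encoded UMIs had a median share of 2.57% in kallikrein-rich and 2.75% in remaining spots. Over the 321 kept spots, the Klk1 share had a Spearman correlation of -0.12 with the spot's UMIs and of -0.05 with its mitochondrial share. Of the 355 spots left out, 342 had 10% or more mitochondrial UMIs, and they lay mainly on one side of the tissue, at a median grid column of 78, against 59 for kallikrein-rich and 58 for remaining kept spots.

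The injury markers of the section labelled Vehicle go against the obstruction described for both mice. Havcr1 and Lcn2, genes for kidney injury molecule 1 and lipocalin 2 that rise strongly in obstructed kidney, were counted 22219 and 27597 times in the SH045 section but only 7 and 9 times in the section labelled Vehicle. For this reason the section is called by its label throughout, and nothing below is read as an effect of obstruction. The matrices shared 335 spot barcodes, which name positions on the slide and not cells. The Klk1 level of whole sections also differed, at 163 CPM (UMIs per 1000000) in SH045 and 11178 CPM in the section labelled Vehicle.

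Kallikrein-rich spots were scattered as small patches. They formed 19 groups of touching spots, of which the largest had 4 spots and 10 were single. Of the kept neighbours of kallikrein-rich spots, 18.6% (34 of 183) were themselves kallikrein-rich, against 9.46% (149 of 1575) of the neighbours of remaining spots. Of the 33 spots, 23 touched another member, and 115 of the 288 remaining spots touched one. The median distance from the edge of all 676 spots in the matrix, left-out spots included, was 5 grid steps (1 to 11) for kallikrein-rich spots. It was 6 (1 to 12) for remaining spots. When the kept spots were split into 4 blocks by position, the blocks held 10, 9, 8 and 6 kallikrein-rich spots, where Klk1 stood at 98050, 95306, 97285 and 80265 CPM, against 6857, 7726, 9141 and 10282 CPM in the remaining spots of the same blocks. The map of the Klk1 share shows these patches across the kept area.

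**Figure D1:**
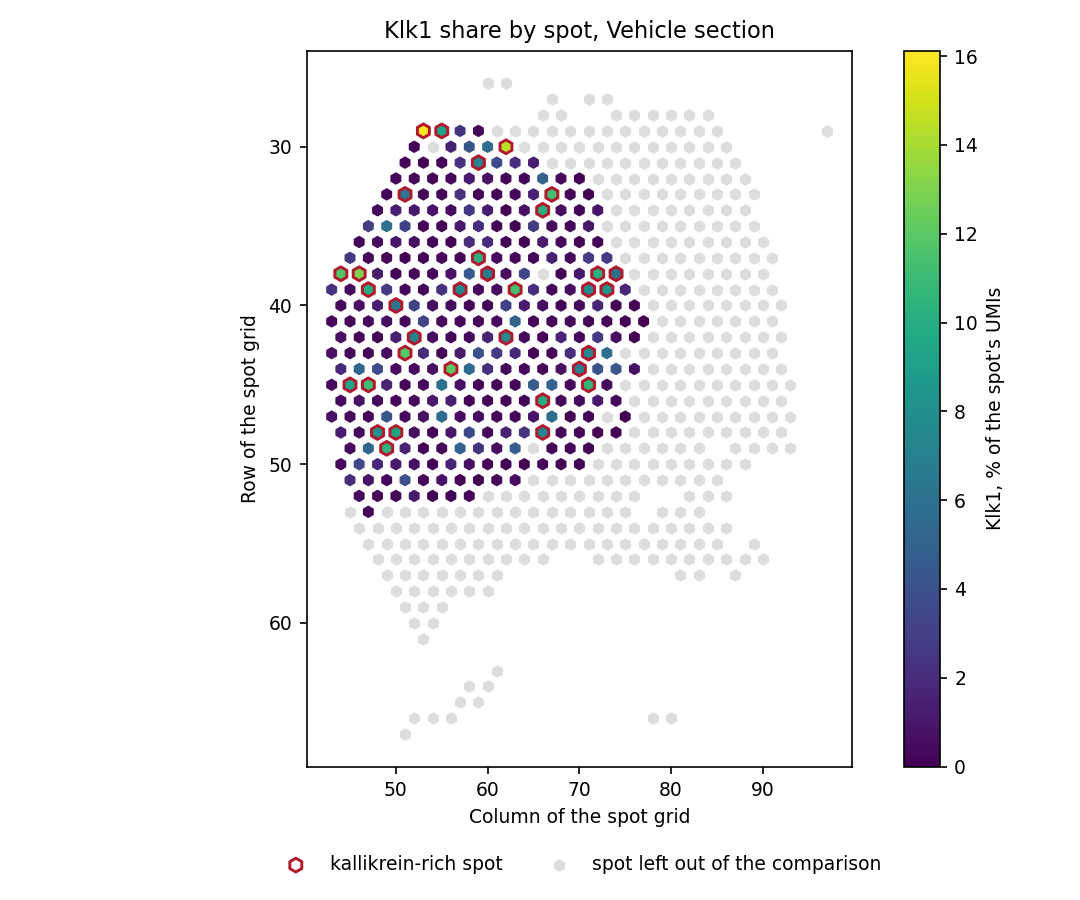
Map of the section labelled Vehicle on the spot grid (axes: grid column and row, no units). Colour gives the Klk1 share of each kept spot's UMIs in percent, red outlines mark the 33 kallikrein-rich spots, and grey spots were left out. The outlined spots lie in 19 separate groups across the kept area, and the left-out spots lie to its right and below it.

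Klk1 was left out of the gene counts and lists that follow, but not of the total, and levels are CPM of summed UMIs. A gene was counted if it reached 20 CPM over all kept spots, and called where its CPM + 1 differed by 1.5-fold or more. Of 6074 counted genes, 856 (14.1%) were higher and 1649 (27.1%) lower in kallikrein-rich spots. These shares are the background for every count of list members below. With the 95% interval of the fold also clear of 1, 490 (8.07%) were higher and 877 (14.4%) lower. The median log2 ratio of the counted genes was -0.11. Klk1 in the total brings each other gene a shift of -0.13, and with a total that leaves Klk1 out 1178 genes were higher and 1428 lower. Centred on the median, the counts were 1116 and 1425. In spots, as in bulk tissue, fewer cells of a type and less RNA per cell cannot be told apart.

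S100g had the highest ratio, and other genes of calcium reabsorption were also higher in the kallikrein-rich spots. S100g, encoding calbindin-D9k, a cytosolic calcium carrier induced by vitamin D, was at 43893 CPM (43070 to 44729) in kallikrein-rich and 6559 CPM (6450 to 6670) in remaining spots, a fold of 6.69 (6.52 to 6.86). Calb1, encoding calbindin-D28k, the larger carrier, was at 4341 CPM (4085 to 4609) and 972 CPM (930 to 1015), a fold of 4.47. Slc8a1, encoding the sodium-calcium exchanger of the basolateral membrane, was at 983 CPM in kallikrein-rich and 174 CPM in remaining spots, a fold of 5.65 (4.78 to 6.67). Clu, encoding the secreted chaperone clusterin, had the next highest ratio after S100g under the naming rule, with 2940 CPM and 480 CPM, a fold of 6.13 (5.56 to 6.75).

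Spot by spot, S100g separated the groups most clearly. Its level had a lowest, median and highest of 22254, 46837 and 66267 CPM in kallikrein-rich spots and of 0, 3114 and 40395 CPM in remaining spots. All 33 kallikrein-rich spots lay above the remaining spots' median, and 23 lay above their maximum. S100g lies on chromosome X, from 162961992 to 162964599, and with Klk1 it made up 13.8% of UMIs in kallikrein-rich and 1.51% in remaining spots. Calb1 ran from 2148 through 4084 to 6688 CPM in kallikrein-rich spots and from 0 through 638 to 7422 CPM in the others, so that all 33 were above the remaining median but none was above the maximum. Slc8a1 was found in all 33 kallikrein-rich spots, at 182, 922 and 1956 CPM, and in 142 of 288 remaining spots, at 0, 0 and 2525 CPM. The groups overlap for each of these genes, least for S100g.

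**Figure D2:**
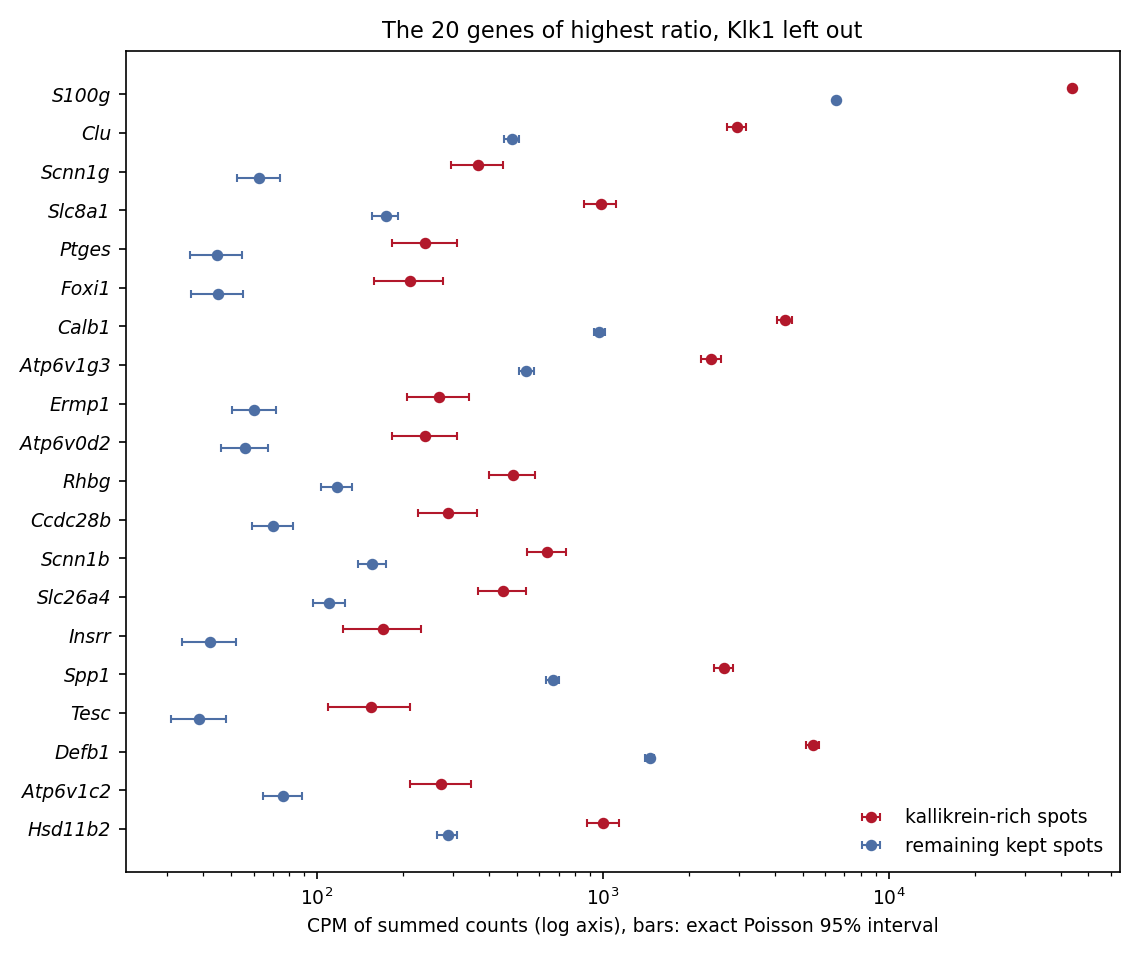
CPM of summed UMIs (log axis) of the 20 genes with the highest ratio under the naming rule, with exact Poisson 95% intervals, in kallikrein-rich (red) and remaining kept spots (blue). S100g is at 43893 CPM against 6559 CPM at the top, and Hsd11b2 at 1003 CPM against 286 CPM at the bottom.

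All 6 counted genes of the connecting tubule list were higher in kallikrein-rich spots. The 8 genes of the list summed to 51187 CPM in kallikrein-rich and 8197 CPM in remaining spots, a log2 ratio of 2.64 that ran from 2.14 to 3.11 over the 4 blocks, and the median log2 ratio of the 6 genes was 2.33 beside -0.11 for all counted genes. S100g supplied most of that sum. Tmem52b, another connecting tubule marker, was at 897 CPM and 266 CPM. The remaining members, Trpv5 and Trpv6, encode the apical calcium channels and were too low to be counted; they are given here after their values were seen. Trpv5 had 16 UMIs in kallikrein-rich and 12 in remaining spots (65.0 CPM, 37.1 to 106, and 5.75 CPM, 2.97 to 10.0), and Trpv6 had 1 and 4 UMIs.

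The wider calcium list followed. Of its 8 counted genes, 6 were higher and 1 lower in kallikrein-rich spots. Kl, the gene for klotho, a co-receptor for the hormone FGF23, was at 1413 CPM and 453 CPM, a fold of 3.12 (2.75 to 3.53), and was found in all 33 kallikrein-rich spots at 606 CPM or more. Vdr, the vitamin D receptor gene, was at 544 CPM in kallikrein-rich and 223 CPM in remaining spots, a fold of 2.44 (2.0 to 2.96). Atp2b4, which encodes a calcium pump of the plasma membrane, had 21 UMIs (85.3 CPM) and 29 UMIs (13.9 CPM). The related pump gene Atp2b1 was called lower on 4 and 59 UMIs, with a fold interval of 0.152 to 1.55 that spans 1. Pth1r, the parathyroid hormone receptor gene, which the proximal tubule also uses, was at 707 CPM and 912 CPM and was not called.

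Sodium channel genes were also higher. Scnn1g and Scnn1b, for the gamma and beta subunits of the epithelial sodium channel, were at 365 CPM and 638 CPM in kallikrein-rich spots, against 62.7 CPM and 156 CPM in remaining spots, folds of 5.83 (4.40 to 7.68) and 4.08 (3.35 to 4.96). The alpha subunit gene Scnn1a stood at 260 CPM and 103 CPM, a smaller fold of 2.52 (1.88 to 3.35). Hsd11b2, whose enzyme inactivates glucocorticoid so that aldosterone can reach its receptor, was at 1003 CPM and 286 CPM, and Kcnj1, for the potassium channel ROMK, at 784 CPM and 320 CPM. Of the 11 counted genes of the sodium channel, mineralocorticoid and potassium list, 8 were higher and 3 lower, and the list summed to 3805 CPM in kallikrein-rich and 1679 CPM in remaining spots.

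The 3 lower genes of that list were Prss8, Fkbp5 and Tsc22d3. Prss8, for prostasin, a protease that activates the sodium channel, was at 191 CPM and 382 CPM, a fold of 0.50 (0.364 to 0.671). Fkbp5 and Tsc22d3, glucocorticoid-induced genes, rested on 5 and 3 UMIs in kallikrein-rich spots, and both fold intervals reach past 1. Sgk1, for a kinase induced by aldosterone, was at 219 CPM in kallikrein-rich and 121 CPM in remaining spots. Its log2 ratio of 0.85 became -0.01 in a random draw that thinned every spot to 1000 UMIs. Nedd4l, for a ligase that removes the channel, was at 89.3 CPM and 48.8 CPM, with block values of both signs.

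The intercalated cell list was higher as a whole. All 11 counted genes were called, the 12 genes summed to 4475 CPM in kallikrein-rich and 1134 CPM in remaining spots, and the log2 ratio of 1.98 ran from 1.82 to 2.19 over the blocks. Atp6v1g3, a proton pump subunit gene, was at 2388 CPM (2199 to 2589) and 540 CPM (509 to 573), and was found in all 33 kallikrein-rich spots with 3 to 69 UMIs and a median of 14. Foxi1, for the transcription factor that specifies intercalated cells, was at 211 CPM and 45.0 CPM. Slc26a4, for pendrin, the chloride-bicarbonate exchanger of base-secreting cells, was at 447 CPM and 111 CPM, a fold of 4.04 (3.19 to 5.09). Slc4a1, for the exchanger AE1 of acid-secreting cells and named after its values were seen, was at 102 CPM and 47.9 CPM, a fold of 2.12. Rhbg, an ammonia transporter gene, was at 483 CPM in kallikrein-rich and 117 CPM in remaining spots.

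Principal cell genes did not move as one. The list summed to 1970 CPM in kallikrein-rich and 1069 CPM in remaining spots (log2 ratio 0.88), of which Hsd11b2 alone made up 1003 CPM and 286 CPM. Aqp2, for the vasopressin-regulated water channel that defines principal cells, was at 483 CPM (400 to 578) and 384 CPM (358 to 412), a fold of 1.26 (1.03 to 1.53), under the call. By spot, Aqp2 was found in 26 of 33 kallikrein-rich spots, at 0, 301 and 1447 CPM, and in 184 of 288 remaining spots, at 0, 182 and 4356 CPM. The groups overlap over nearly their whole range. Fxyd4, a sodium pump regulator gene of the collecting duct, was called lower on 8 and 252 UMIs (32.5 CPM and 121 CPM). Its log2 block values were -2.09, -2.22, -1.10 and -2.86. The sign turned in a random draw of thinned spots, while another draw found Fxyd4 in 0 of 33 kallikrein-rich and 33 of 288 remaining spots. Avpr2, for the vasopressin receptor and named after its values were seen, was at 150 CPM and 37.8 CPM.

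Distal convoluted tubule genes split. Of the 10 counted, 5 were higher (Wnk4, Emx1, Trpm6, Cnnm2 and Kcnj10), 2 lower (Pvalb and Egf) and 3 within the call, and the list summed to 2132 CPM in kallikrein-rich and 2409 CPM in remaining spots. That log2 ratio of -0.18 became 0.10 with members from the 80th percentile and 0.23 without the mitochondrial cap. Slc12a3, for the thiazide-sensitive cotransporter that defines this segment, was at 577 CPM and 767 CPM, a fold of 0.752 (0.629 to 0.893), with log2 block values of 0.80, -0.81, -1.51 and -0.78. By spot it ran 0, 363 and 3079 CPM in kallikrein-rich and 0, 336 and 6835 CPM in remaining spots. The medians are close and the highest remaining spots lie above every member. Pvalb, for parvalbumin, a calcium-binding protein of the early distal convoluted tubule, had 8 UMIs in kallikrein-rich spots (32.5 CPM, 14.0 to 64.0) and 421 in remaining spots (202 CPM). Egf, for a magnesium-regulating growth factor, was at 146 CPM and 468 CPM.

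The WNK pathway, which sets salt transport in these segments, was higher in 6 of its 12 counted genes and lower in none. Wnk1 and Wnk4, kinase genes of that pathway, were at 609 CPM and 569 CPM in kallikrein-rich spots, against 206 CPM and 229 CPM in remaining spots. Bsnd, for barttin, was at 179 CPM in kallikrein-rich and 62.7 CPM in remaining spots. Klhl3 and Kcnj10 were called on 28 and 21 UMIs. The list summed to 3618 CPM in kallikrein-rich and 2421 CPM in remaining spots, with a log2 block range of 0.39 to 0.87.

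**Figure D3:**
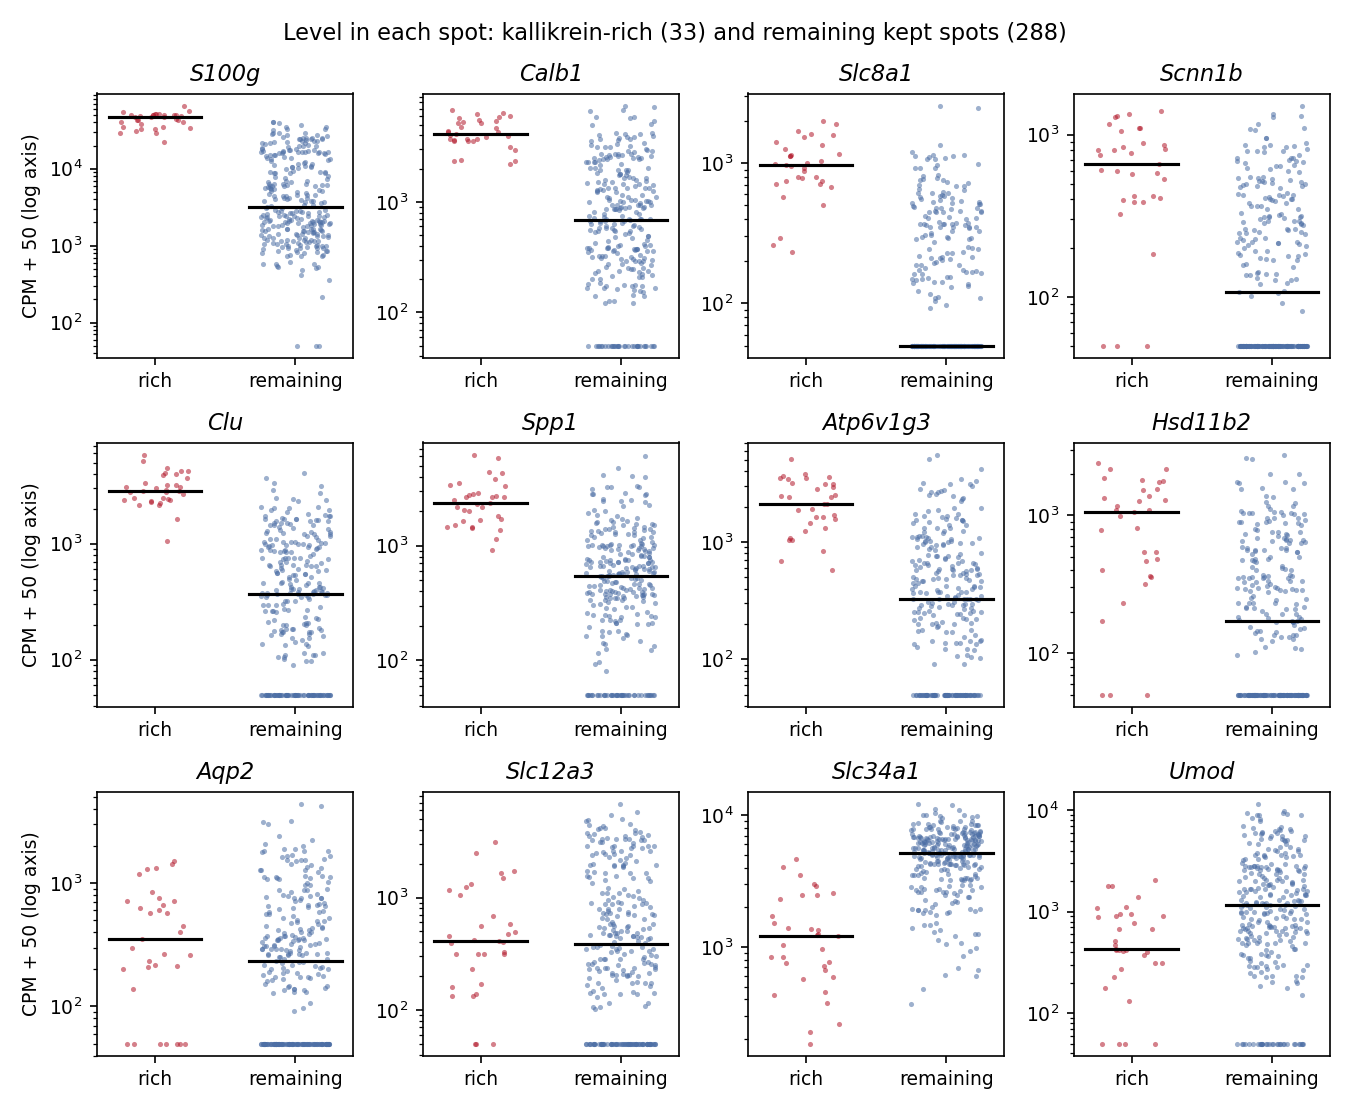
Level of 12 genes in each spot (CPM + 50, log axis), with kallikrein-rich spots (n = 33) on the left and remaining kept spots (n = 288) on the right, each point 1 spot and each bar the median. S100g separates the groups most, Calb1, Slc8a1, Clu and Atp6v1g3 are above the remaining median in all 33 kallikrein-rich spots, Aqp2 and Slc12a3 overlap, and Slc34a1 is below the remaining median in all 33.

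Proximal tubule genes were lower. Of the 15 counted genes of the proximal convoluted list, 14 were lower and 1, Slc7a8, named after its values were seen, was not called (77.2 CPM and 68.0 CPM). The list summed to 4706 CPM in kallikrein-rich and 17325 CPM in remaining spots (log2 ratio -1.88, -2.15 to -1.66 over the blocks). Slc34a1, for the sodium-phosphate cotransporter, was at 1377 CPM (1234 to 1531) and 4996 CPM (4900 to 5093). It was still found in all 33 kallikrein-rich spots, at 134, 1157 and 4585 CPM, against 316, 5152 and 12232 CPM in the remaining spots, and every member lay below the remaining median. All 7 counted genes of the proximal straight list were lower, summing to 723 CPM and 4453 CPM.

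The 10 genes of lowest ratio under the naming rule included Slc7a13 and Acsm3 of the straight list. Slc7a13, an amino acid transporter gene of the straight proximal tubule, had 0 UMIs in kallikrein-rich and 400 UMIs (192 CPM) in remaining spots. Against a floor of 3 counts in the kallikrein-rich spots, which is 12.2 CPM, it was at least 15.7-fold higher in the remaining spots. Pllp had 0 and 119 UMIs, at least 4.68-fold higher in the remaining spots. Acsm3, Fitm1, Timd2, Slco1a1, Bid and BC035947 each had 1 UMI in kallikrein-rich spots and between 118 and 289 in the remaining spots. Tmigd1 had 4 and 540 UMIs, and Cyp2a4, a cytochrome P450 gene, 7 and 736.

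Most thick ascending limb genes were lower. Umod, for uromodulin, was at 552 CPM in kallikrein-rich and 2194 CPM in remaining spots, a fold of 0.252 (0.211 to 0.299), and Slc12a1, for the loop-diuretic-sensitive cotransporter, at 110 CPM and 348 CPM. Of 6 counted genes 4 were lower and 1, Sostdc1, named after its values were seen, was higher, at 195 CPM and 88.1 CPM; Ppp1r1a, at 447 CPM and 531 CPM, was not called. The list summed to 1360 CPM and 3427 CPM.

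**Figure D4:**
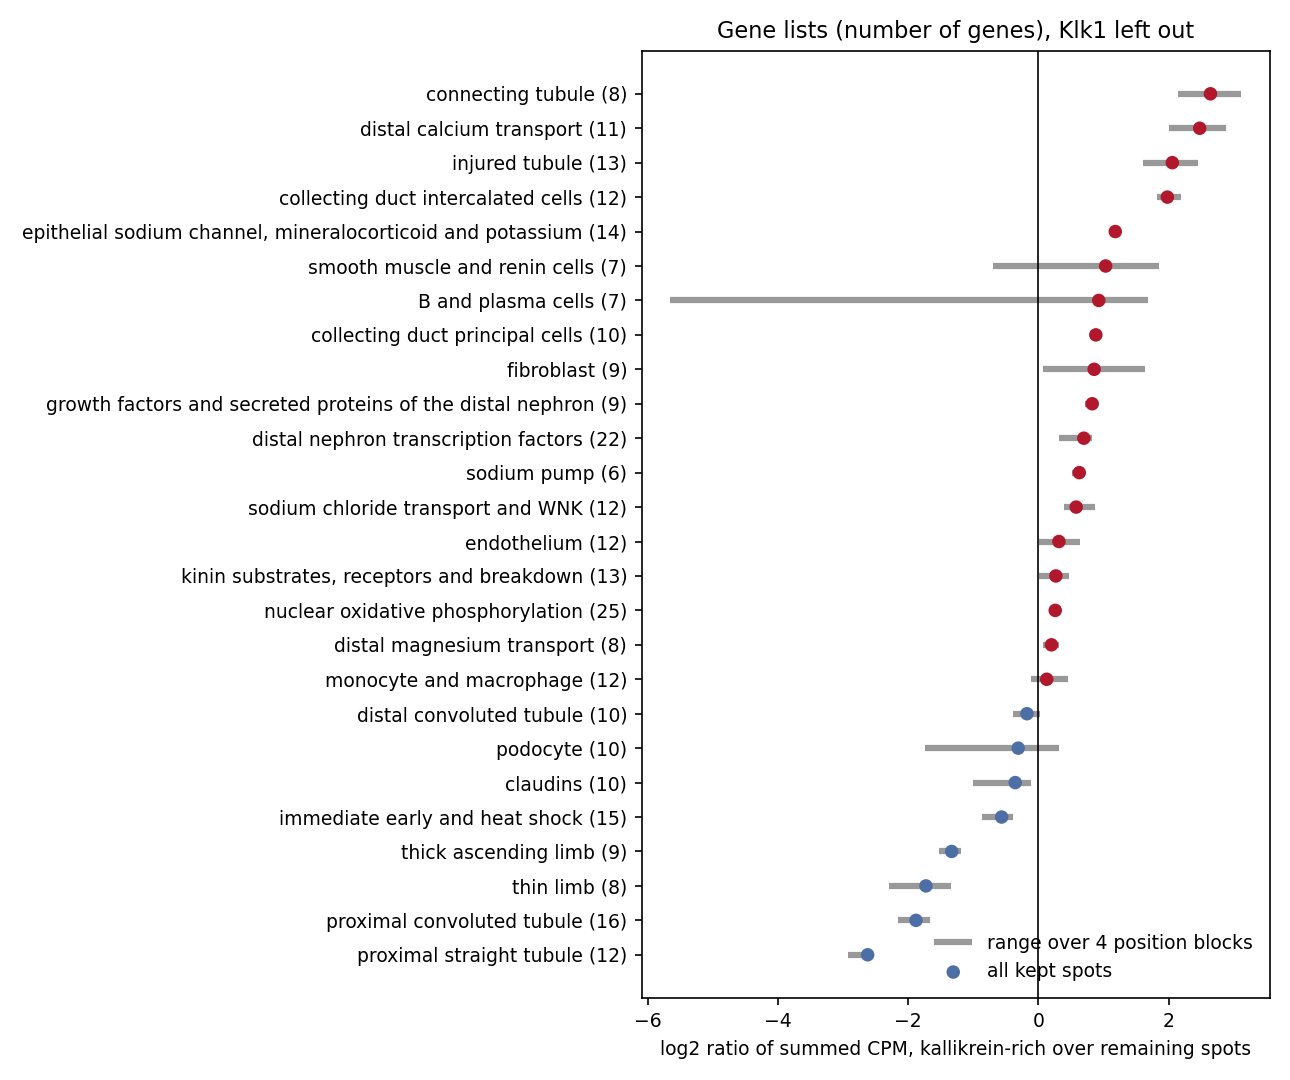
Log2 ratio of each gene list's summed CPM, kallikrein-rich over remaining spots (points, red above 0 and blue below), for lists with at least 2 counted genes, with the range over 4 position blocks (grey bars) and the number of genes in the list in brackets. The connecting tubule list is highest at 2.64 and the proximal straight list lowest at -2.62; the widest bar, of the B and plasma cell list, crosses 0.

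Several more genes were among the 20 of highest ratio. Defb1, for the antimicrobial peptide beta-defensin 1, was at 5425 CPM (5138 to 5724) in kallikrein-rich and 1460 CPM (1409 to 1513) in remaining spots. Ptges, for a prostaglandin E synthase, was at 240 CPM and 44.5 CPM. Tesc, for the calcium-binding protein tescalcin, and Insrr, for an alkali-sensing receptor of intercalated cells, were at 154 CPM and 171 CPM, against 38.8 CPM and 42.1 CPM. Atp6v0d2 and Atp6v1c2, proton pump subunit genes, were at 240 CPM and 272 CPM, against 56.0 CPM and 76.1 CPM. Ermp1 and Ccdc28b were at 268 CPM and 288 CPM, against 60.3 CPM and 69.9 CPM.

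The list of genes that mark injured tubule summed to 5986 CPM in kallikrein-rich and 1439 CPM in remaining spots, and 4 of its 6 counted genes were higher: Clu, Spp1, Krt18 and Cldn4. Spp1, for the secreted phosphoprotein osteopontin, was at 2648 CPM (2448 to 2859) and 668 CPM (633 to 703), and by spot at 874, 2294 and 6188 CPM, against 0, 495 and 5944 CPM. Osteopontin, clusterin and claudin 4 are also made by uninjured distal tubule. The defining injury genes Havcr1 and Lcn2 each had 0 UMIs in kallikrein-rich and 6 in remaining spots, and the floor of 3 counts for a gene with 0 is 12.2 CPM in the kallikrein-rich spots. Krt8, a keratin gene, was at 134 CPM and 130 CPM.

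The kinin system had few genes to measure. Kng2, a kininogen gene and so a substrate of kallikrein, was at 589 CPM (497 to 693) in kallikrein-rich and 259 CPM (237 to 281) in remaining spots, a fold of 2.28 (1.88 to 2.74), higher in all 4 blocks and found in 31 of the 33 spots. The receptor genes Bdkrb1 and Bdkrb2, given after their values were seen, had 0 UMIs in kallikrein-rich spots and 0 and 1 in remaining spots. Among the kinin-degrading enzymes, Ace, for angiotensin-converting enzyme, had 4 and 105 UMIs (16.2 CPM and 50.3 CPM), and the carboxypeptidase genes Cpe and Cpm had 11 and 2 UMIs against 353 and 62. The log2 ratio of Cpm, -1.75, became 0.39 with members from the 80th percentile and 0.68 without the mitochondrial cap. Mme, for neprilysin, was called higher, at 65.0 CPM and 36.4 CPM, with a fold interval of 0.972 to 3.09. Cpn1, Anpep and Ece1 were not called. Of the 8 counted genes of this list, 2 were higher and 3 lower, beside 14.1% higher and 27.1% lower over all 6074 counted genes. With so few genes these counts are not read as a result about the kinin system.

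Other kallikrein genes were near the detection limit, and none of the 26 was counted. The 13 Klk1b genes together had 36 UMIs in kallikrein-rich and 61 in remaining spots, which is 146 CPM and 29.2 CPM. Per 1000 Klk1 UMIs this was 1.56 in kallikrein-rich and 3.41 in remaining spots. The Klk1 counts of this divisor also chose the spots, so the lower ratio is a description only. The most frequent was Klk1b5, with 12 and 26 UMIs. Reads of near-identical copies can be assigned to the wrong gene, so these few counts are uncertain. Klkb1, the plasma kallikrein gene, had 10 and 7 UMIs, 40.6 CPM (19.5 to 74.7) and 3.35 CPM (1.35 to 6.91), and Klk8 had 2 and 17 UMIs. The members named in this paragraph were chosen after their values were seen.

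The 5 genes whose share of UMIs followed the Klk1 share most closely over the 321 kept spots, among genes of at least 50 CPM, were S100g, Calb1, Clu, Defb1 and Spp1, with Spearman correlations of 0.88, 0.78, 0.76, 0.73 and 0.71. Spots share 1 library and the UMI total of each spot, so these are descriptions of the section. Within the 33 kallikrein-rich spots alone, the correlation with the Klk1 share was 0.38 for S100g, 0.06 for Calb1, 0.13 for Clu and -0.38 for Slc34a1. The number of S100g UMIs per Klk1 UMI ran from 0.252 through 0.474 to 0.722.

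The kept spots were also ranked by Klk1 share into 10 bins of like number, which are ranks and not positions. Because S100g was picked above for following that share over the same spots, its rise over the bins is a description only. S100g was at 1169 CPM in bin 1, the lowest, 5855 CPM in bin 6 and 43910 CPM in bin 10, and Slc34a1 at 6793, 4043 and 1347 CPM. Slc12a3 had its highest levels in between, at 223 CPM in bin 1, 1503, 1638 and 1666 CPM in bins 6 to 8, 1130 CPM in bin 9 and 546 CPM in bin 10. Pvalb was highest in bin 6 at 458 CPM and was at 33.4 CPM in bin 10. Umod was highest in bin 4, at 3371 CPM. Aqp2 was lowest in bin 1, at 172 CPM, and highest in bin 8, at 649 CPM, with 492 CPM in bin 10.

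**Figure D5:**
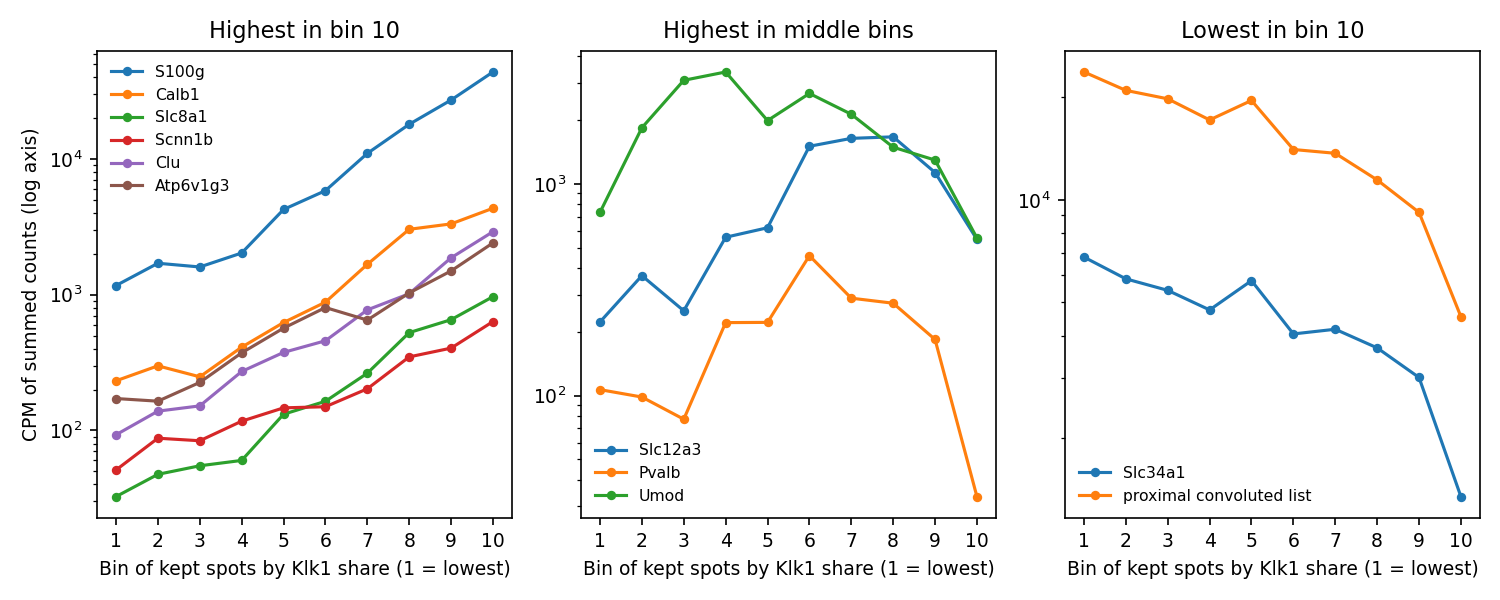
CPM of summed UMIs (log axis) in 10 bins of the 321 kept spots, ranked by Klk1 share from lowest (1) to highest (10). S100g reaches 43910 CPM in bin 10, Slc12a3, Pvalb and Umod have their highest values in bins 4 to 8, and Slc34a1 and the proximal convoluted list are lowest in bin 10.

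Spots chosen by neighbouring segments gave a further comparison. Of the 33 spots highest in the connecting tubule list, 26 (78.8%) were kallikrein-rich, and of those highest in the intercalated list 15 (45.5%). For the principal cell list it was 7 (21.2%), and for the distal convoluted, thick ascending limb and both proximal lists it was 0. The 33 spots highest in the injured tubule list included 22 (66.7%) of the members. Each of these sets has 33 spots, so each share holds for both sets. The kallikrein-rich spots are 33 of the 321 kept spots, the share beside which each overlap stands. S100g supplied most of the connecting tubule sum, and Clu and Spp1 most of the injured tubule sum. Those genes were picked above for following the Klk1 share over the same spots, so both overlaps are descriptions only.

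Slc12a3 was at 577 CPM (486 to 680) in kallikrein-rich spots, against 3636 CPM (3362 to 3927) in the 33 spots highest in the distal convoluted list. Pvalb was at 32.5 CPM and 1007 CPM in the same order. Aqp2 was at 483 CPM in kallikrein-rich spots, against 1612 CPM (1451 to 1786) in the 33 spots highest in the principal cell list. S100g was at 43893 CPM in kallikrein-rich spots, against 23070 CPM in the principal cell set and 8078 CPM in the distal convoluted set. Other genes were at overlapping or higher levels in the principal cell set: Scnn1b was at 638 CPM (542 to 745) in kallikrein-rich spots and 595 CPM (499 to 704) there, and Atp6v1g3 at 2388 CPM (2199 to 2589) and 2216 CPM (2026 to 2418). Hsd11b2 was at 1003 CPM (882 to 1136) in kallikrein-rich spots and 1414 CPM (1264 to 1578) in the principal cell set, and Slc4a1 at 102 CPM and 123 CPM. Of the 33 spots of that set, 7 are kallikrein-rich themselves. Klk1 was at 34617 CPM in the principal cell set and at 12133 CPM in the distal convoluted set. Slc12a3, Pvalb, Aqp2 and Hsd11b2 also chose those sets, so their levels there are descriptions.

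Depth was evened by thinning each kept spot at random to 1000 UMIs, which left out none of the 321. Calb1 was then found in 33 of 33 kallikrein-rich spots (exact 95% interval 89.4% to 100%) and in 151 of 288 remaining spots (52.4%, 46.5% to 58.3%), against 33 and 255 before thinning. Slc26a4 was found in 51.5% (33.5% to 69.2%) and 9.38% (6.27% to 13.3%), against 30 of 33 and 122 of 288 spots before. RNA that drifts between spots can give background, for which the 33 remaining spots highest in proximal convoluted genes serve as a guide: there Calb1 was found in 15.2%, Slc26a4 in 9.09%, Klk1 in 60.6% and S100g in 84.8%. In the remaining spots Klk1 was found in 87.2% and S100g in 89.2%. The shares of remaining spots with S100g and with Slc26a4 are thus close to those in spots rich in another segment. Presence of a UMI alone cannot tell expression from drift there. Levels without thinning differed among remaining spots. In bin 8 of the Klk1 share S100g was at 18064 CPM and Slc26a4 at 259 CPM, against 1169 CPM and 55.7 CPM in bin 1. Trpv5 was found in 4 of 33 thinned kallikrein-rich spots and in 0 of 288 thinned remaining spots, which had 12 Trpv5 UMIs before thinning.

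The same rule in the SH045 section took 77 of 768 kept spots, at a threshold of 0.0354% Klk1, far below the 6.03% above. Klk1 there was at 859 CPM in kallikrein-rich and 73.5 CPM in remaining spots. S100g was at 472 CPM (445 to 500) and 120 CPM (115 to 125), and Calb1 at 92.4 CPM (80.8 to 105) and 22.0 CPM (19.9 to 24.2), folds of 3.94 and 4.21 beside 6.69 and 4.47 in the section labelled Vehicle. Slc8a1 was at 114 CPM and 48.4 CPM. Spp1 was at 14817 CPM in kallikrein-rich and 17732 CPM in remaining spots of the SH045 section, a log2 ratio of -0.26 beside 1.99 in the section labelled Vehicle, and Clu had 0.26 beside 2.61. Slc12a3 had 1.78 beside -0.41 and Slc34a1 0.78 beside -1.86. The thresholds and depths differ, with a median of 31136 UMIs in kallikrein-rich spots of the SH045 section and 6940 in those of the section labelled Vehicle, and the differences between the sections were not tested.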

How the data were processed

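The deposited data of a section are raw UMI counts by gene and spot, with barcodes, gene identifiers and a table of spot positions, in which the grid rows and columns are plain position numbers. They were made with Space Ranger 2.0.1, per the file headers, on the mm10 build, per the submitters' processing notes. How reads were aligned and annotated is not given in the sources used here. The Vehicle positions table flags as tissue 570 of the 676 spots in the matrix, among them all 321 kept spots. Image scale factors were not used.

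From these counts, CPM of summed UMIs were computed with Python 3.11.15, numpy 2.4.6, scipy 1.17.1 and pandas 2.3.3. Each CPM has an exact Poisson 95% interval and each fold an exact conditional binomial one. A log2 ratio is the difference of log2(CPM + 1). Low genes are limited by depth: 1 UMI in the kallikrein-rich spots is 4.06 CPM. The program was tested on simulated counts.

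The members and the 32 gene lists, 20 of them cell type markers, were chosen with earlier results of these data known. Genes were named by rule: Klk1; the 20 genes highest and the 10 lowest by log2 ratio, of those with at least 50 CPM and the same direction in all 4 position blocks, without mitochondrial, ribosomal, haemoglobin, immunoglobulin or predicted genes; every counted member of the kallikrein, kinin, calcium, WNK and sodium channel lists; the 4 counted members of highest level of every other list; and the 5 genes closest to the Klk1 share. Of 126 such genes, 125 were placed by symbol in RefSeq (GRCm38.p6). Some genes under the rule are not reported here. Genes named beyond it were chosen after their values were seen. Alternatives varied the percentile, spot filters, scaling, thinning, level filter, pseudocount, comparison spots and position blocks.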

Additional observations from a re-analysis of the deposited data

Results flagged for a closer look

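The 342 spots left out for 10% or more mitochondrially encoded UMIs still carried Klk1, at 3606 CPM (95% interval 3523 to 3691). The main comparison of kallikrein-rich with remaining kept spots does not use them. Whole-section levels and the settings with a raised or no mitochondrial cap do. None of those with at least 1000 UMIs reached the Klk1 threshold of the kallikrein-rich spots, and the highest share among the 342 was 1.68%. Among all 355 left-out spots the highest share was 9.74%, above the threshold, in a spot with under 1000 UMIs. S100g was at 8004 CPM and Calb1 at 1291 CPM in these spots.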

How the results depend on the processing

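Settings moved sizes more than directions. Of 90 named genes that were called, 69 stayed past the fold in all 19 alternative settings, and at least 78 did so in each. The connecting tubule list (2.64 on the log2 scale) was 2.32 at the 95th percentile, 2.88 at the 80th, 2.60 with a 2000 UMI minimum, 2.58 with a 20% mitochondrial cap, 2.42 with none, 2.38 by the mean of spots' CPM, 2.27 thinned, 2.77 with Klk1 out of the total, 2.75 centred and 3.11 against spots that touch no member. In the same order the proximal convoluted list (-1.88) moved to -2.35, -1.45, -2.03, -1.57 and -1.30, and to -1.75 with Klk1 out of the total, -1.77 centred and -1.98 against non-touching spots. The distal convoluted list (-0.18) was 0.10 at the 80th percentile, 0.0498 at the 20% cap, 0.23 without a cap, -0.0460 with Klk1 out of the total and 0.0390 against non-touching spots, so its sign is not settled. The principal cell list (0.88) was 0.72 by the mean of spots' CPM and 1.10 against non-touching spots. Leaving out each position block gave 2.51 to 2.78 for the connecting tubule, 0.82 to 0.91 for the principal cell, -0.26 to -0.09 for the distal convoluted and -2.01 to -1.82 for the proximal convoluted list, with 878 to 1049 genes higher and 1732 to 1844 lower. Against 856 higher and 1649 lower genes, thinning gave 1338 higher, a filter at 10 CPM 1408 higher, a filter at 50 CPM 301 and 861, which tests fewer genes, and no filter 3178 and 4832. Signs turned for Akr1b3 (0.31 at the 80th percentile, 0.42 and 0.45 with the 20% and no cap), Cpm (0.39 at the 80th percentile and 0.68 without a cap), Cdkn1c (0.0423 without a cap and 0.12 thinned), Hspa1b (-0.45 thinned), Sgk1 (-0.0119 thinned), Fxyd4 (0.31 thinned) and Igkc (-3.19 without position block 3, and up to 1.22 without another block); the cause was not tested. Thinned values here come from a random draw, and another draw found Fxyd4 in 0 of 33 kallikrein-rich and 33 of 288 remaining spots. No paired analysis was possible because each group is 1 set of spots of 1 section. The minimum of 20 CPM for a counted gene equals 4.93 UMIs in the kallikrein-rich spots, so calls near it rest on few counts.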

Other observations

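Other epithelial lists in the kallikrein-rich spots were mixed. Their counts of members stand beside 14.1% higher and 27.1% lower over all 6074 counted genes. Of the sodium pump genes, Atp1b1, for a beta subunit, was at 3476 CPM in kallikrein-rich and 2086 CPM in remaining spots, and the list had 3 of 6 genes higher and 1 lower. Claudins, the seals between tubule cells, split into 3 higher (Cldn4, Cldn7 and Cldn8) and 3 lower (Cldn2, Cldn10 and Cldn19), and Cldn8 was at 162 CPM and 60.3 CPM. Of the distal transcription factors, 6 of 8 counted were higher, among them Tfcp2l1, a regulator of collecting duct cells, at 414 CPM and 132 CPM, while Pax8 was lower on 2 and 65 UMIs. The thin limb list summed to 199 CPM and 659 CPM, with 2 of 3 counted genes lower. Of the magnesium list, 2 of 7 were higher (Trpm6 and Cnnm2) and 4 lower. Of the secreted proteins, Wfdc2 was at 1381 CPM and 455 CPM, and 3 of 6 were higher and 3 lower. None of the 25 nuclear oxidative phosphorylation genes was called, and their sum was 42700 CPM in kallikrein-rich and 35693 CPM in remaining spots.

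The endothelial list summed to 983 CPM in kallikrein-rich and 790 CPM in remaining spots (2 of 10 counted genes higher), the macrophage list to 682 CPM and 624 CPM (1 of 7 lower) and the podocyte list to 260 CPM and 322 CPM (2 of 5 lower). Over all 6074 counted genes, 14.1% were higher and 27.1% lower. Counts of so few members near those shares are not read as results about a cell type. The fibroblast list summed to 231 CPM and 128 CPM (2 of 3 higher). In the smooth muscle and renin list (309 CPM and 151 CPM) Acta2 was higher, but 1 of the 4 blocks had none in kallikrein-rich spots. In the B and plasma cell list (264 CPM and 139 CPM) Igkc was called higher, but 2 of the 4 blocks had none in kallikrein-rich spots and it was higher in 1 block alone. No gene was counted in the lists for T and NK cells (2 and 17 UMIs), neutrophils (2 and 57), urothelium (1 and 6), erythroid cells (1 and 36) or macula densa (11 and 51). In the list of immediate early and heat shock genes, which had 7 counted, 2 were higher and 3 lower, with Hspa8 at 1653 CPM and 2654 CPM.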
